A study of Mus musculus with 97 samples.

Results

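The 8 genes that build or cap the sugar chains of colonic mucins were followed across the experiment, out of 20457 genes in the table. They were picked by gene symbol as Fut2, Fut4, B4galnt2, B3gnt7, C1galt1, C1galt1c1, Gcnt3 and St3gal4, and all 8 were found, expressed and tested. The samples were 97 RNA libraries from whole colons of wild-type C57BL6/J mice of 8 to 12 weeks, kept free of specific pathogens. Mice received 2.5 mg of ampicillin, of vancomycin, of neomycin or of metronidazole, or a mix of these 4 (the dose of each within the mix is not clear from the labels), given in 100 µl of PBS by oral gavage (PO), by intraperitoneal injection (IP) or by intravenous injection (IV), and controls received PBS by the same routes. Dosing was 2 times a day for 3 days with a last dose on day 4, and colons were taken 4 h later. Groups held 6 libraries, except for 4 in Vancomycin-IP, Metronidazole-IP, Metronidazole-IV and PBS-IP, and 5 in Vancomycin-IV, Neomycin-IV and PBS-IV. Levels are TPM (transcript abundance per library), which are scaled for gene length and library size and leave the read depth unknown. The labels do not state that libraries are from separate mice. The p-values below therefore reflect differences among libraries, which may be technical.

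Mucin O-glycans start with N-acetylgalactosamine on serine or threonine. Galactose, N-acetylglucosamine, fucose and sialic acid are then added in order by Golgi enzymes, which sets the length, branching and end groups of each chain. In the gut the end groups serve as food and as attachment sites for bacteria, and epithelial fucosylation by Fut2 in mice is known to depend on microbes and on interleukin 22. C1galt1 adds the galactose that makes the core 1 structure, C1galt1c1 (Cosmc) is the chaperone that C1galt1 needs for folding, and Gcnt3 makes the branched core 2 and core 4 structures. B3gnt7 adds the N-acetylglucosamine that lengthens chains. Fut2 and Fut4 add fucose, Fut2 to terminal galactose and Fut4 to N-acetylglucosamine within Lewis-type structures. B4galnt2 adds the terminal N-acetylgalactosamine of the Sda antigen, and St3gal4 adds terminal sialic acid.

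Promoter windows are shown for 3 members whose levels followed a score of posterior Hox genes, as described further on. B3gnt7 and Fut4 rose with that score and B4galnt2 fell. The letters are RefSeq sequence of build GRCm38.p6, read in the direction of the gene from 250 bases before its start to 50 bases after it. RefSeq windows were matched for 5 of the 8 members by symbol, B3gnt7, Fut4, B4galnt2, C1galt1 and St3gal4, and Fut2, C1galt1c1 and Gcnt3 were not matched. B3gnt7 lies on the plus strand at chr1:86302971-86303270, Fut4 on the minus strand at chr9:14752073-14752372 and B4galnt2 on the minus strand at chr11:95914822-95915121. Capitals mark the GC box GGGCGG or its reverse complement CCGCCC, and the E-box CACGTG.
B3gnt7: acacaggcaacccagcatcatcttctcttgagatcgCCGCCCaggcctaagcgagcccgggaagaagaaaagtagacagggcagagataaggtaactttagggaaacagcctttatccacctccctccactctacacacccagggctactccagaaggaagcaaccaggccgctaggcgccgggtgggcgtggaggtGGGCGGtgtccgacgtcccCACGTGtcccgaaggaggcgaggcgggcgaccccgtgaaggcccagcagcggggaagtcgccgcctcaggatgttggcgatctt
Fut4: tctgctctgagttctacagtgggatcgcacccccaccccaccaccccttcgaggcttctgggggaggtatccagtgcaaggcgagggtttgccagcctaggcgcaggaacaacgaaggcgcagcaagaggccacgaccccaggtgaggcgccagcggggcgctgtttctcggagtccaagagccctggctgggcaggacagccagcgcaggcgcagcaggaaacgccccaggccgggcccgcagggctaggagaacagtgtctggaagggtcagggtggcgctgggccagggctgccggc
B4galnt2: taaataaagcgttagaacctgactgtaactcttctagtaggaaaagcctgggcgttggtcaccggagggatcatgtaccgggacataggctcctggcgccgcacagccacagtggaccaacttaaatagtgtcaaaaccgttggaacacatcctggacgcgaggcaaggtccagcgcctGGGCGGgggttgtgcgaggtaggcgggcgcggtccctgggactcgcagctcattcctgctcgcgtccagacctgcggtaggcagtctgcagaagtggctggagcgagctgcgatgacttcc
The 5 motifs searched on both strands were a CDX-type site (TTTATNNC), a STAT site (TTCNNNGAA), an E-box (CACGTG), a GC box (GGGCGG) and a TATA box (TATAAA), none of which overlapped another in these windows. The B3gnt7 window held GC boxes that begin 214 and 53 bases before the start and an E-box 34 bases before it, the B4galnt2 window held a GC box 71 bases before the start, and the Fut4 window held none of the 5. Among 32851 mouse promoter windows of this length, 35.7% held a GC box, 13.6% a TATA box, 12.6% a CDX-type site, 8.3% a STAT site and 7.15% an E-box. A match is only a run of letters.

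Each library had 18247 to 19884 genes above 0. Tissue makeup varied widely. A score of 15 epithelial genes, the mean of their log2(TPM + 1), ran from 5.78 to 10.1, and a like score of 18 smooth muscle genes from 7.27 to 11.7. PBS-IV 4 had the lowest epithelial score. The last 12 columns of the table, 8 vancomycin and 4 PBS libraries, fall outside the order that the other columns keep. Calls of the 8 members that change without them are given both ways. Other pathway genes named further on are given only with all libraries. Leaving out the 12 also leaves 1 library in Vancomycin-IP, and only PBS-IP 1 and 2 in PBS-IP.

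St3gal4 had the highest median level of the 8, 195 TPM over the 97 libraries with a range of 22.9 to 622 TPM. Gcnt3 followed with a median of 93.2 TPM (9.74 to 759), C1galt1 with 89.4 TPM (41.7 to 191) and Fut2 with 83.3 TPM (9.46 to 201). B4galnt2 had a median of 39.9 TPM (6.09 to 354), C1galt1c1 26.7 TPM (11.3 to 50.9) and Fut4 23.8 TPM (2.24 to 220). B3gnt7 had the lowest median, 18.1 TPM, but the widest range, 0.105 to 715 TPM, and was under 10 TPM in 40 libraries and at 100 TPM or more in 38. The interquartile ranges of neighbours in this order overlapped, so the order of levels does not separate neighbouring genes. The core 1 pair varied least, C1galt1 by 4.58-fold and C1galt1c1 by 4.51-fold between the lowest and the highest library, against 6815-fold for B3gnt7.

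**Figure D1:**
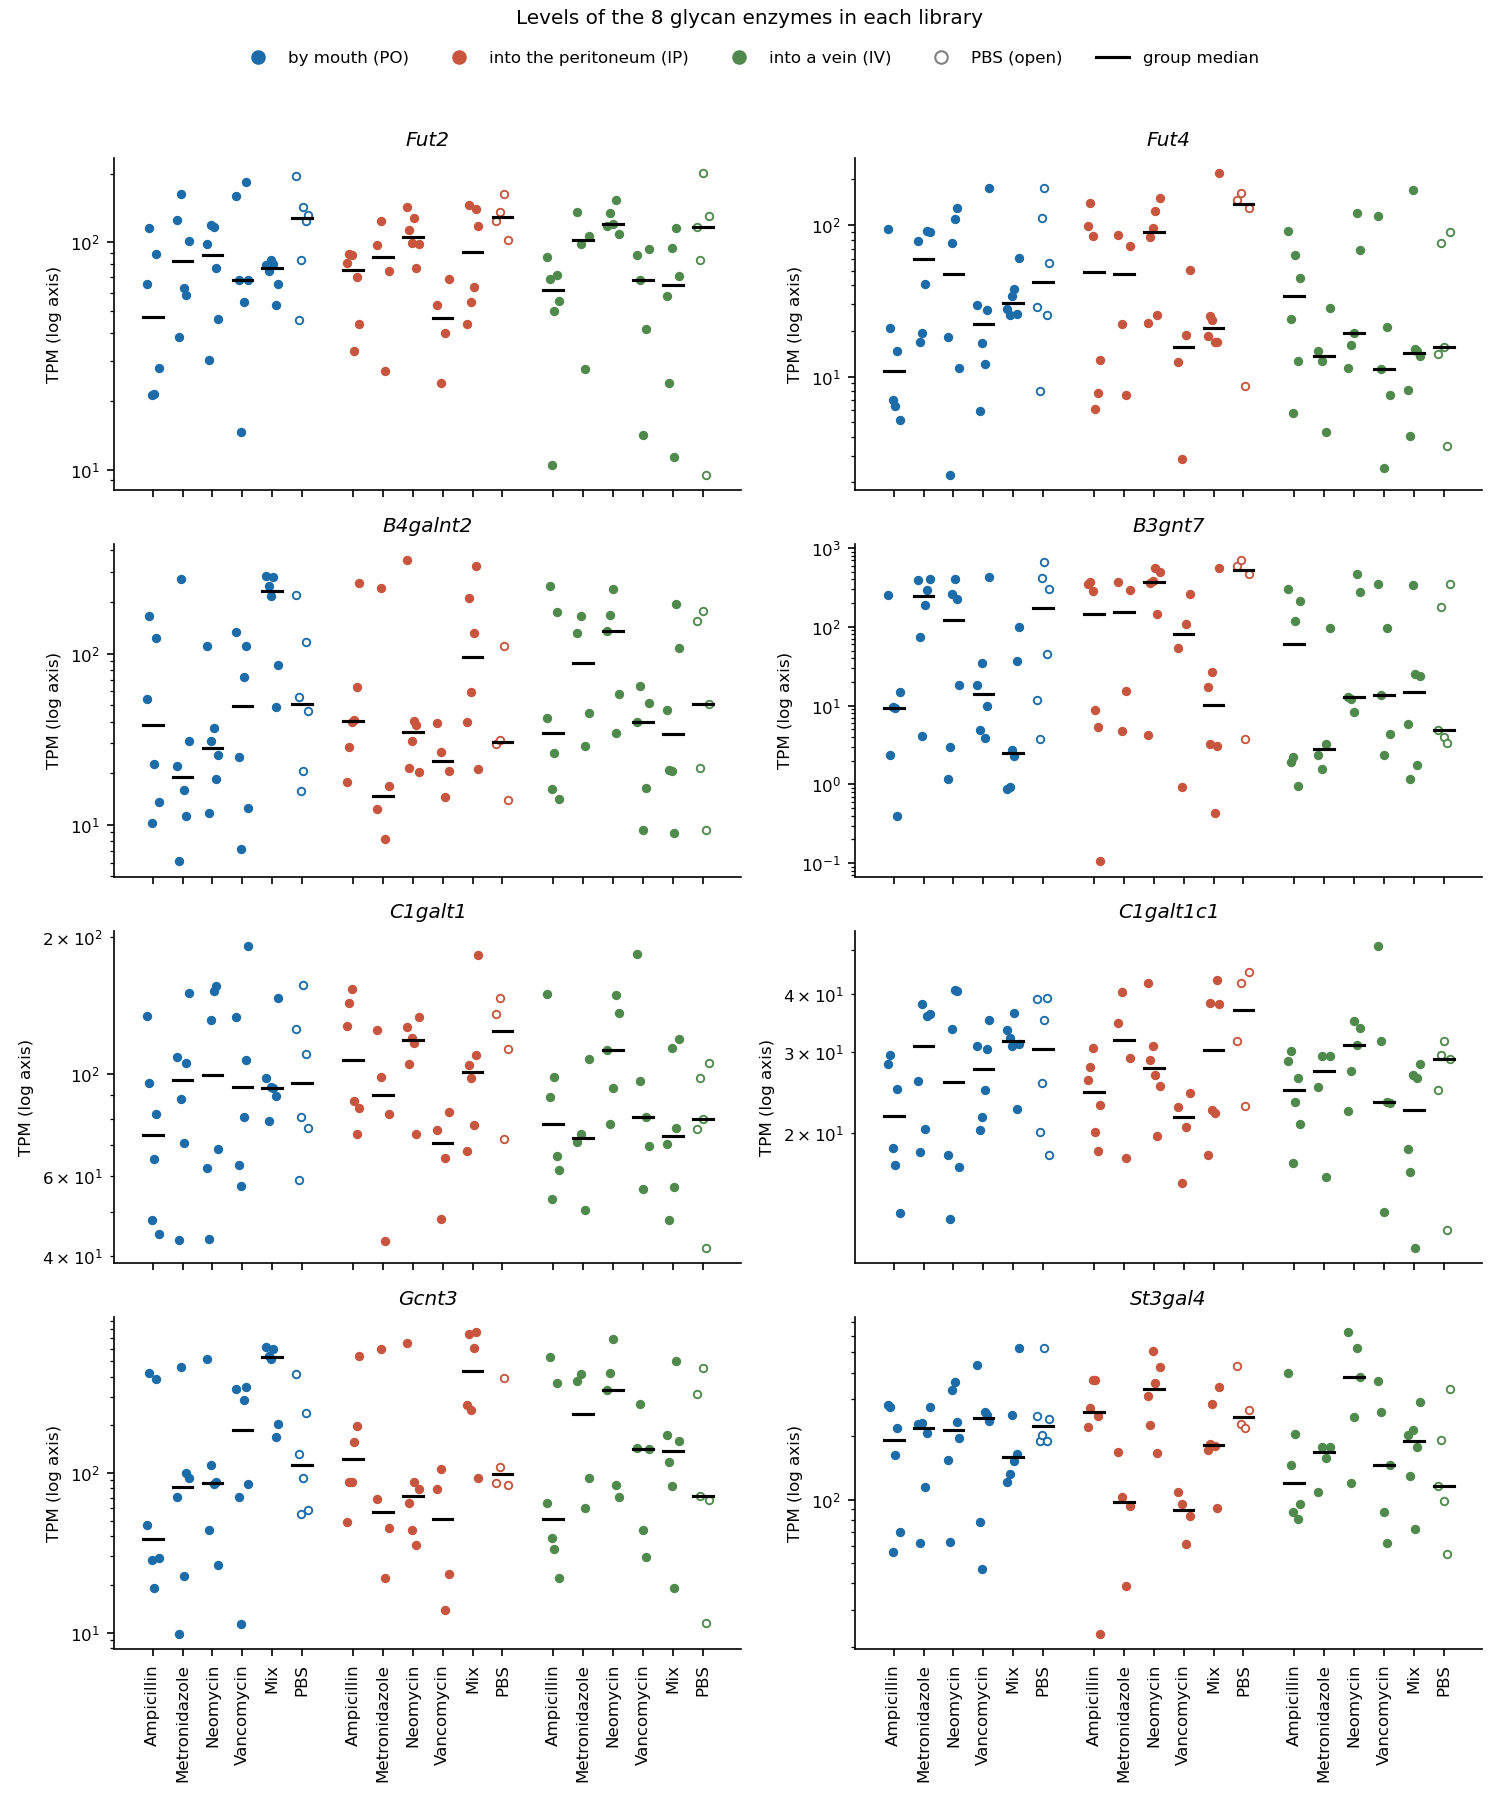
Levels of the 8 genes in each library, in TPM on a log axis, by antibiotic and route, with PBS as open points at the right of each route and a black bar at each group median. B3gnt7, Fut4, B4galnt2 and Gcnt3 spread widely among the 97 libraries, 6815-fold for B3gnt7, while C1galt1 and C1galt1c1 stayed within 4.58-fold.

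Antibiotic groups were first set against PBS of the same route, with limma on log2(TPM + 1) and Benjamini-Hochberg adjustment over the 17083 genes tested in each comparison. Among the 120 tests, 8 genes in 15 comparisons, 1 passed an adjusted p of 0.05, a fall of St3gal4 in Vancomycin-IP. In the oral comparisons 0 of 8 members were called under ampicillin, metronidazole, neomycin, vancomycin and the mix, where 0.0702%, 0%, 0.0176%, 0.176% and 0.252% of all genes tested were called. After intravenous dosing 0 of 8 were called in each comparison, where the share of all genes was 0.082% for ampicillin, 0% for metronidazole, 0.544% for neomycin, 0.258% for vancomycin and 0% for the mix. After intraperitoneal dosing 0 of 8 were called for ampicillin, metronidazole, neomycin and the mix, where 0.492%, 0%, 0.603% and 0.275% of all genes were called. In Vancomycin-IP 1 of 8 was called, where the share of all genes was 19%. At an unadjusted p under 0.05 the members gave 9 of 120 tests, 7.5%, where 10% of all gene tests in these comparisons passed. The standard error of a log2 fold change was 0.25 to 0.31 for C1galt1c1, 0.51 to 0.63 for Fut2 and 1.65 to 2.02 for B3gnt7, so changes in B3gnt7 of several-fold were not detectable.

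St3gal4, the sialyltransferase, had 108.7, 94.8, 61.2 and 84.0 TPM in the 4 Vancomycin-IP libraries, against 429.7, 227.4, 219.7 and 267.1 TPM in the 4 PBS-IP libraries. Every Vancomycin-IP library lay below every PBS-IP library. How many of all genes separate these 2 groups in this way was not counted, and 19% of all genes were called there. The log2 fold change was -1.68 (SE 0.62, limma adjusted p = 0.045), and the group means were 87.2 ± 20.1 TPM in Vancomycin-IP and 286 ± 98.1 TPM in PBS-IP (SD, n = 4 each). The tissue makeup of these 2 groups moved with the result. The smooth muscle score was 11.1 ± 0.29 in Vancomycin-IP and 8.84 ± 0.47 in PBS-IP, and the epithelial score was 8.07 ± 0.75 in Vancomycin-IP and 9.41 ± 0.20 in PBS-IP (SD, n = 4 each). Both differences had an exact permutation p of 0.0286, two-sided, the smallest that 4 against 4 allows, and an adjusted p of 0.61 over 150 score tests. With the epithelial score as a covariate the St3gal4 value was -0.92 (adjusted p = 0.37), and with muscle and posterior Hox scores it was -1.06 (adjusted p = 0.61). In bulk tissue, fewer cells of a type and less RNA per cell cannot be told apart. The call was also lost without any 1 of the 8 libraries, Vancomycin-IP 1 to 4 and PBS-IP 1 to 4 (adjusted p 0.0525 to 0.125), without a filter on low values (0.0523) and without the 12 appended libraries (-1.52, adjusted p = 0.405).

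In Metronidazole-IP, St3gal4 had 168.4, 102.6, 39.0 and 92.8 TPM, against the same 4 PBS-IP libraries. Every antibiotic library lay below every PBS library, and the share of all genes separated in this way was not counted. The difference of -1.62 on the log2 scale (SE 0.62) did not pass adjustment (limma adjusted p = 0.58). In Neomycin-IV, St3gal4 had its highest group median, 381 TPM, against 116 TPM in PBS-IV, which came to 1.30 on the log2 scale (SE 0.55) and was not called (limma adjusted p = 0.59). Over the 15 comparisons St3gal4 was lower in 9 and higher in 6, with a median log2 fold change of -0.35.

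Fut2, the fucosyltransferase of the gut surface, was lower in 13 of 15 antibiotic groups than in PBS of the same route, with a median log2 fold change of -0.60. Comparisons of 1 route share their PBS libraries, so these 15 signs are not independent. Ampicillin-IP libraries held 33.2 TPM at the lowest, 75.5 at the median and 88.4 at the highest, against 123.6, 135.3, 163.4 and 101.8 TPM in the PBS-IP libraries. In Vancomycin-IP, Fut2 had 52.9, 24.0, 39.8 and 69.2 TPM, against those PBS-IP values. In both, no antibiotic library reached the lowest PBS-IP library, and the share of all genes separated in this way was not counted. The separations of St3gal4 described above rest on the same 4 PBS-IP libraries. In every other same-route comparison of the 8 members the antibiotic and PBS groups overlapped. The log2 fold change was -1.02 (SE 0.57) in Ampicillin-IP and -1.55 (SE 0.63) in Vancomycin-IP, with limma adjusted p-values of 0.59 and 0.066. The Vancomycin-IP result depended on processing. It was called with pseudocount 10 (adjusted p = 0.0487), after quantile normalization (0.0439) and with array weights (0.00159). It was also called in a fit of only the 2 groups (0.00412) and without Vancomycin-IP 4 (0.0445). With epithelial and posterior Hox scores as covariates it was -0.39 (adjusted p = 0.49). Groups of the other 2 routes overlapped. Ampicillin-PO had a lowest, median and highest level of 21.3, 46.9 and 115.8 TPM, against 45.4, 128 and 195.4 TPM in PBS-PO. So 3 of 6 ampicillin libraries lay below every PBS library. These 3, Ampicillin-PO 3, 4 and 6, had epithelial scores of 7.48, 7.54 and 6.91, against 9.11, 9.48 and 9.24 in Ampicillin-PO 1, 2 and 5. The log2 fold change was -1.25 (SE 0.51, limma adjusted p = 0.30). With epithelial and posterior Hox scores as covariates it was -0.43 (SE 0.23, adjusted p = 0.66). Ampicillin-IV had 10.4, 61.9 and 86.0 TPM, against 116.4, 83.5, 201.3, 9.46 and 130.3 TPM in the PBS-IV libraries. The lowest of these, PBS-IV 4, also had the lowest epithelial score of all 97 libraries, 5.78.

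Averaged over the 3 routes, Fut2 fell in ampicillin-treated and in vancomycin-treated mice relative to PBS. The mean log2 fold change was -0.97 (SE 0.31, limma adjusted p = 0.0389) for ampicillin and -0.93 (SE 0.33, adjusted p = 0.0311) for vancomycin. Fut2 was the 1 member of 8 called in each, where 7.88% and 26% of all genes tested were called. It was -0.62 (SE 0.31, adjusted p = 0.23) for the mix, -0.41 (SE 0.34) for metronidazole and -0.04 (SE 0.32) for neomycin, and 0 of 8 members were called in these 3, where 7.96%, 0.398% and 2.34% of all genes were called. Without the 12 appended libraries, a setting chosen after seeing the data, Fut2 was at -0.73 (adjusted p = 0.28) for ampicillin and -0.97 (adjusted p = 0.15) for vancomycin, and neither was called. The ampicillin call was lost without any 1 of 16 libraries (Ampicillin-IP 4 or 6, Ampicillin-IV 3, Ampicillin-PO 3, 4 or 6, PBS-IP 1, 2 or 3, PBS-IV 1, 2, 3 or 5, PBS-PO 1, 4 or 6), with log2 fold changes of -0.98 to -0.83 and adjusted p-values of 0.0526 to 0.094. The vancomycin call was lost without any 1 of 5 (Vancomycin-IP 2, Vancomycin-IV 3, Vancomycin-PO 3, PBS-IV 3 or 5), with values of -0.86 to -0.78 and adjusted p-values of 0.0586 to 0.0776.

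The epithelial score moved with Fut2 across libraries, so the comparison was repeated with scores for tissue makeup as covariates. With the epithelial score in the fit, Fut2 was -0.62 for ampicillin (limma adjusted p = 0.00265), -0.62 for the mix (adjusted p = 0.00182) and -0.33 for vancomycin (adjusted p = 0.16). With the epithelial score and a score of 5 posterior Hox genes, a setting chosen after seeing the data, the values were -0.64 (SE 0.14, adjusted p = 0.000606) for ampicillin, -0.71 (SE 0.14, adjusted p = 0.000267) for the mix and -0.35 (SE 0.15, adjusted p = 0.096) for vancomycin. Metronidazole was then at -0.22 and neomycin at -0.17, neither called. In that fit 15.1% of all genes were called for ampicillin, 12.7% for the mix and 16.3% for vancomycin. Single groups called for Fut2 were Ampicillin-IP at -0.91 (adjusted p = 0.023; 4.43% of all genes called) and Mix-PO at -0.92 (adjusted p = 0.0288; 0.866% of all genes called). In the other antibiotic groups no member was called in that fit, where the share of all genes was 0.246% in Ampicillin-PO, 1.29% in Ampicillin-IV, 0.0234% in Metronidazole-PO, 0% in Metronidazole-IP and 0.0117% in Metronidazole-IV. It was 0.24% in Neomycin-PO, 1.93% in Neomycin-IP, 0.989% in Neomycin-IV, 0.948% in Vancomycin-PO, 3.01% in Vancomycin-IP, 3.06% in Vancomycin-IV, 1.63% in Mix-IP and 0.164% in Mix-IV. Over the 3 routes it was 1.04% for metronidazole and 9% for neomycin. B3gnt7 for ampicillin was also called, at -0.92 (adjusted p = 0.0232). With muscle and Hox scores instead, Fut2 was -0.60 for ampicillin (adjusted p = 0.0869), -0.63 for the mix (adjusted p = 0.0817) and -0.28 for vancomycin (adjusted p = 0.62). A covariate that treatment itself shifts removes part of the effect, and whether it did here was not tested.

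**Figure D2:**
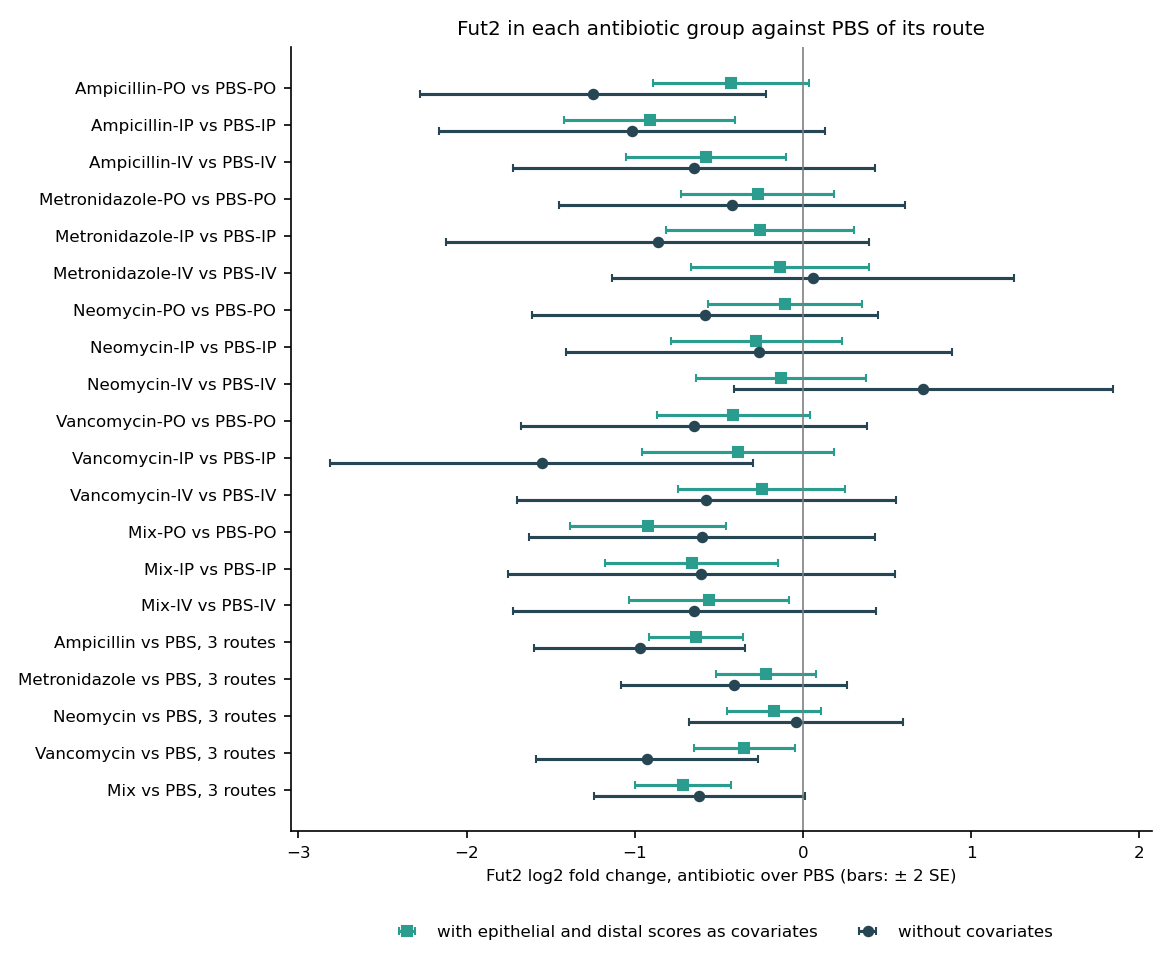
Fut2 log2 fold change, antibiotic over PBS of the same route, in 15 comparisons and averaged over the 3 routes, with bars of 2 SE, without covariates (circles) and with the epithelial and distal scores as covariates (squares). With covariates the bars shorten, and the 3-route values were -0.64 for ampicillin and -0.71 for the mix, while vancomycin has its square at -0.35 and its circle at -0.93.

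Fut4 was lower in 12 of 15 antibiotic groups, with a median log2 fold change of -0.62, and none was called. Vancomycin-IP had 12.5, 2.87, 18.8 and 50.8 TPM of Fut4, against 146.9, 164.0, 8.73 and 130.4 TPM in PBS-IP. The low control, PBS-IP 3, lay within the range of the Vancomycin-IP libraries, and the log2 fold change was -2.30 (SE 1.08, limma adjusted p = 0.11). Without PBS-IP 3 it was -3.28 (adjusted p = 0.0447). Fut4 levels rose with both the epithelial and the Hox score, as described further on. The mean epithelial score was 8.07 in Vancomycin-IP and 9.41 in PBS-IP. Hox scores of the PBS-IP libraries ran from 1.358 to 5.265, with a median of 5.08. With both scores in the fit of all libraries, Fut4 was not called here or over the 3 routes of vancomycin. Over the 3 routes of vancomycin Fut4 was at -1.25 (SE 0.56, adjusted p = 0.0851), and it was called without any 1 of 6 libraries (Vancomycin-IP 4, Vancomycin-IV 1, Vancomycin-PO 6, PBS-IP 3, PBS-IV 4, PBS-PO 2), at -1.58 to -1.41.

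C1galt1 and C1galt1c1, which act together on core 1, showed small differences. C1galt1 ran from -0.75 to 0.53 and C1galt1c1 from -0.71 to 0.27 over the 15 comparisons on the log2 scale, none called. Vancomycin-IP gave the lowest value of both, with 75.7, 48.3, 65.7 and 82.9 TPM of C1galt1, against 135.8, 147.1, 72.1 and 113.4 TPM in PBS-IP. The C1galt1c1 fold change there, -0.71 (SE 0.31), had an adjusted p of 0.0867 in limma, which fell to 0.0397 after quantile normalization, at -0.95. It was also called in a fit of only the 2 groups (0.0488) and with array weights (0.000169). Array weights called C1galt1 there too (0.000882), and C1galt1c1 in Ampicillin-PO and Ampicillin-IP, where 11.5% of all gene tests were called. The mean epithelial score was 8.07 in Vancomycin-IP and 9.41 in PBS-IP. With the epithelial and Hox scores neither gene was called.

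B3gnt7, B4galnt2 and Gcnt3 had wide standard errors against PBS and none was called. B3gnt7 was lower in 11 of 15 antibiotic groups, with a median log2 fold change of -1.63, and the mix over the 3 routes was at -2.61 (SE 1.01, limma adjusted p = 0.0929). That value was called without Mix-IP 6 or without PBS-IP 3, at -2.96 and -3.18. Mix-IP 6 had the highest Hox score of its group, 6.01, against a group median of 1.97. With the epithelial and Hox scores in the fit of all libraries, B3gnt7 was not called for the mix. Mix-PO had 0.863, 2.49 and 100.1 TPM of B3gnt7 as its lowest, median and highest, against 3.75, 172 and 672 TPM in PBS-PO, and the groups overlapped. B4galnt2 and Gcnt3 were each lower in 9 antibiotic groups and higher in 6. Over the 3 routes of the mix B4galnt2 was at 0.87 (SE 0.51, adjusted p = 0.316) and Gcnt3 at 1.11 (SE 0.54, adjusted p = 0.2).

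Next, the mix was set against the averaged single antibiotics given by the same route, to ask whether the combination differed from its parts. Oral mix had the highest group medians of B4galnt2 and Gcnt3 in the study. B4galnt2, which caps chains with N-acetylgalactosamine, had 48.8, 233 and 283 TPM as the lowest, median and highest of Mix-PO, against medians of 38.4 TPM in Ampicillin-PO, 18.9 in Metronidazole-PO, 28.2 in Neomycin-PO and 49.1 in Vancomycin-PO. Gcnt3, the branching enzyme, had 168, 530 and 614 TPM in Mix-PO, against medians of 38.4, 81.5, 86.4 and 187 TPM in those 4 groups. The ranges overlapped in each pair. The log2 fold change over the single antibiotics was 2.29 (SE 0.66, limma adjusted p = 0.0503) for B4galnt2 and 2.21 (SE 0.70, adjusted p = 0.0721) for Gcnt3, so 0 of 8 members were called, where 1.64% of all genes were. B3gnt7, the chain-lengthening enzyme, lay the other way at -2.15 (SE 1.31), with a Mix-PO median of 2.49 TPM. Mix-IP gave 2.16 (SE 0.71, adjusted p = 0.0641) for Gcnt3, 1.34 (SE 0.68) for B4galnt2 and -2.18 (SE 1.34) for B3gnt7, with 0 of 8 called, where 3.34% of all genes were. In Mix-IV the 3 values were -0.18, -0.49 and -0.56, with 0 of 8 called, where 0.00585% of all genes were.

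Without the 12 appended libraries both were called in Mix-PO, B4galnt2 at 2.65 (adjusted p = 0.0196) and Gcnt3 at 2.58 (adjusted p = 0.0251). B4galnt2 in Mix-PO was called without any 1 of 8 libraries (Ampicillin-PO 2 or 5, Metronidazole-PO 3, Neomycin-PO 1, Vancomycin-PO 1, 4 or 5, Mix-PO 5), at 2.33 to 2.63. Gcnt3 was called in Mix-PO without any 1 of 4 (Ampicillin-PO 2, Metronidazole-PO 3, Neomycin-PO 1, Mix-PO 5), at 2.34 to 2.45. In Mix-IP it was called without any 1 of 5 (Ampicillin-IP 6, Metronidazole-IP 2, Neomycin-IP 1, Mix-IP 1 or 6), at 2.24 to 2.54. The Hox score moved with both genes. It was 0.97 to 3.78 in the 6 Mix-PO libraries with a median of 1.58, against medians of 3.75 in Ampicillin-PO, 5.04 in Metronidazole-PO, 4.70 in Neomycin-PO and 2.37 in Vancomycin-PO, and the ranges overlapped. With the epithelial and Hox scores in the fit, a setting chosen after seeing the data, the Mix-PO differences were 0.52 (SE 0.24, limma adjusted p = 0.40) for B4galnt2, 0.32 (SE 0.22, adjusted p = 0.64) for Gcnt3 and 0.02 (SE 0.40) for B3gnt7, each closer to 0 than without the scores, with the sign of B3gnt7 turned and uncalled in both fits. In Mix-IP, Gcnt3 was then at 0.72 (SE 0.22, adjusted p = 0.0538) and B3gnt7 at -0.39 (SE 0.40), and B4galnt2 was close to 0 (SE 0.24). In this fit 0 of 8 members were called in each mix comparison, where 0.217% of all genes in Mix-PO, 2.32% in Mix-IP and 0.0585% in Mix-IV were called.

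Tests over all groups gave no member. An F test of the 15 antibiotic effects together called 0 of 8 (limma adjusted p 0.12 to 0.61), where 14.4% of all genes were called, with St3gal4 lowest. Without Ampicillin-IP 6, whose St3gal4 level of 22.9 TPM was the lowest of the 97, that test was at 0.0401. F tests of equal effects over the 3 routes called 0 of 40, with adjusted p of at least 0.63, where 0.0878% of all genes were called for neomycin and 0% for each other antibiotic. Injected PBS against oral PBS called 0 of 16, where 0% of all genes were called for either injection.

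Libraries of 1 group often differed widely, and for 4 members the levels followed the posterior Hox genes, which are textbook markers of the hind end of the gut. The distal score was the mean log2(TPM + 1) of Hoxd11, Hoxd12, Hoxd13, Hoxb13 and Hoxa13, and ran from 0.80 to 6.15. The labels call every sample whole colon, and which stretch of colon each library holds was not tested. The 6 libraries highest in B3gnt7, with 500 to 715 TPM, had scores of 4.98 to 6.02, and the 6 lowest, with 0.105 to 0.936 TPM, had scores of 0.87 to 1.97. The 6 highest in Gcnt3, with 604 to 759 TPM, had scores of 0.80 to 1.61, and the 6 lowest, with 9.74 to 19.0 TPM, had 3.99 to 5.07. The 6 highest had scores of 5.01 to 6.07 for Fut4 and 0.80 to 1.56 for B4galnt2. The 6 lowest of these 2 genes reached into middle scores, at 1.94 to 4.01 for Fut4 and 2.75 to 5.07 for B4galnt2. Levels therefore ran in opposite directions along the score. In libraries with a score of at least 4 (n = 47) the median was 296.5 TPM for B3gnt7, 84.8 for Fut4, 21.5 for B4galnt2 and 68.5 for Gcnt3, against 3.75, 15.8, 135 and 394 TPM in libraries with a score under 3 (n = 41), and 9 libraries lay between.

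**Figure D3:**
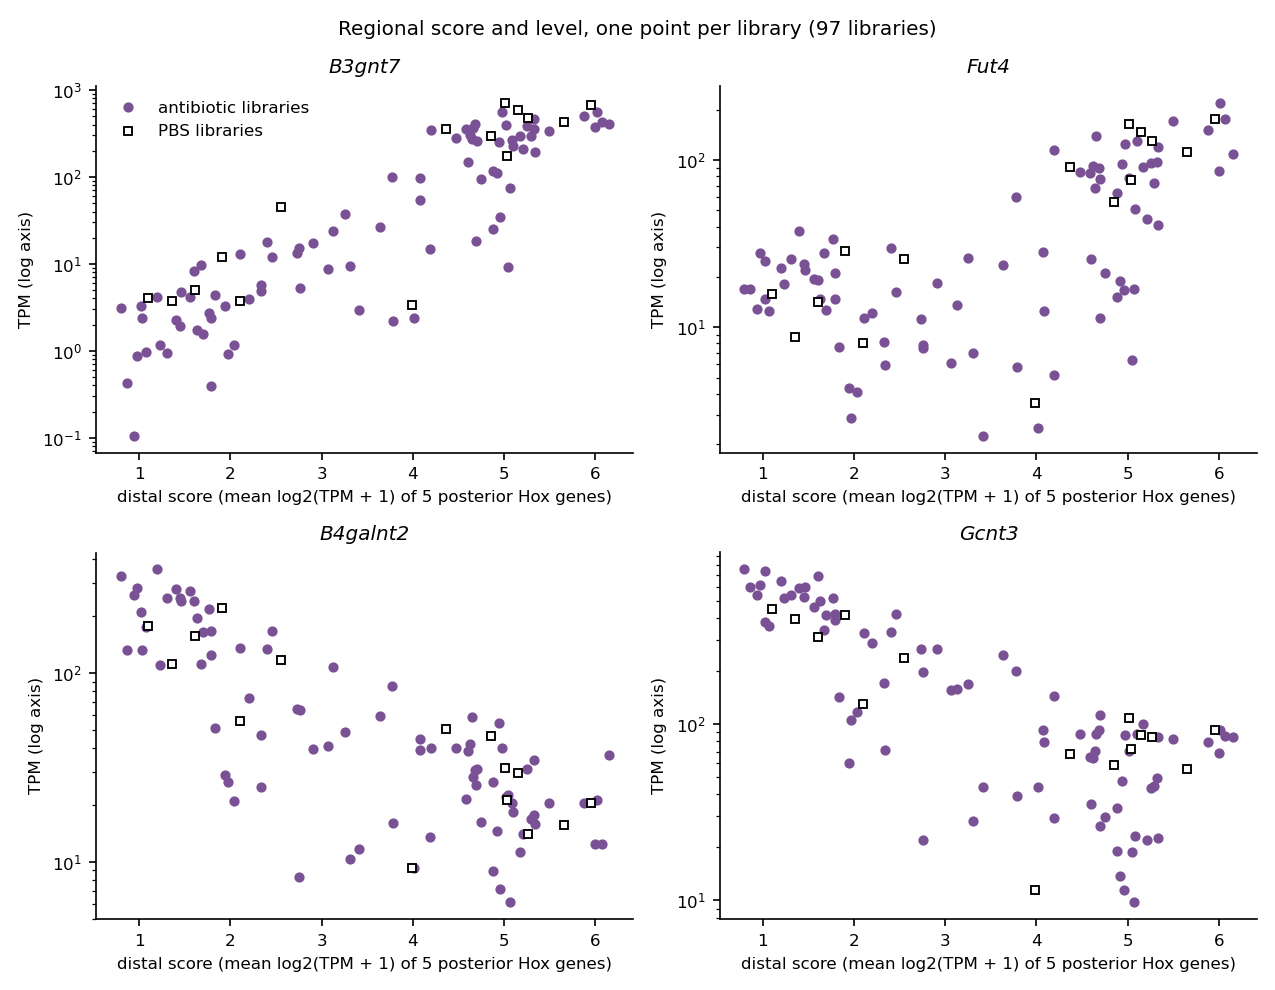
Level of B3gnt7, Fut4, B4galnt2 and Gcnt3 in TPM on a log axis against the distal score in the 97 libraries, with antibiotic libraries as filled circles and PBS libraries as open squares. B3gnt7 and Fut4 stand high at scores of 4 and above, B4galnt2 and Gcnt3 stand high at scores under 3, and PBS libraries lie at both ends.

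In 1 limma fit with the 18 groups and both scores, B3gnt7 rose by 1.61 log2 units per unit of distal score (SE 0.056) and Fut4 by 0.64 (SE 0.036). Gcnt3 fell by 0.70 (SE 0.031) and B4galnt2 fell by 0.68 (SE 0.035). Slopes of St3gal4 (0.15, SE 0.046), C1galt1 (0.13, SE 0.018) and Fut2 (-0.08, SE 0.027) were shallow but called. With the distal score alone in the fit the Fut2 slope was -0.11 (SE 0.060, adjusted p = 0.13) and was not called, so that 6 of 8 members were, where 47.9% of all genes were. The slope of C1galt1c1 (0.01, SE 0.017, adjusted p = 0.52) was not called. With both scores 7 of 8 members were called, where 59.8% of all genes tested were, and members differed in the size of the slope. On the epithelial score all 8 slopes were positive and called, from 0.40 for C1galt1c1 to 1.17 for Fut4, where 78.9% of all genes were called. Within the 41 libraries with a distal score under 3, B3gnt7 (1.57, SE 0.23) and B4galnt2 (-0.61, SE 0.15) were called, 2 of 8 members, where 8.67% of all genes were. Within the 47 with a score of at least 4, 0 of 8 were called, where 0.861% of all genes were, at 0.54 (SE 0.25) for B3gnt7, 0.52 (SE 0.16) for Fut4, -0.69 (SE 0.18) for B4galnt2 and -0.45 (SE 0.20) for Gcnt3. All 8 epithelial slopes were called in both subsets, where 59.4% and 70.4% of all genes were. Both subsets were chosen after seeing the data.

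**Figure D4:**
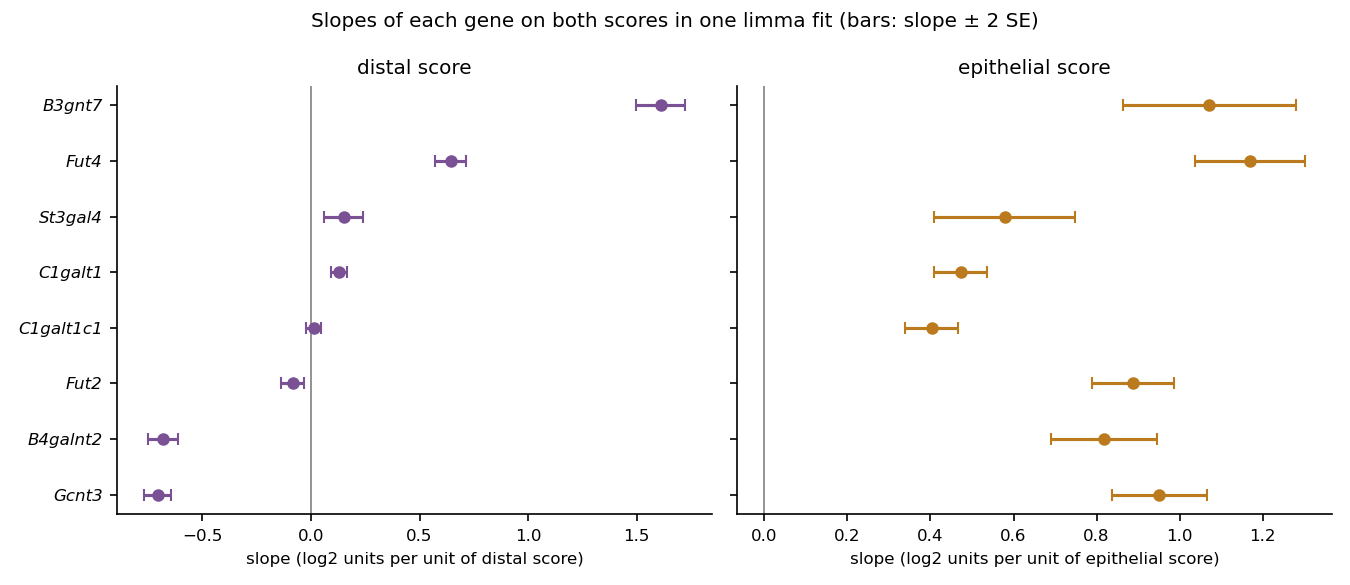
Slope of each gene on the distal score (left) and on the epithelial score (right), in log2 units per unit of score, from 1 limma fit over 97 libraries, with bars of 2 SE. B3gnt7 (1.61) and Fut4 (0.64) lie right of 0 on the distal score, B4galnt2 (-0.68) and Gcnt3 (-0.70) left of it, and all 8 lie right of 0 on the epithelial score.

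The same pairs often shared their highest library, as did some others. The library highest in B4galnt2 was also highest in Gcnt3 in 16 of 18 groups, and the library highest in Fut4 was highest in B3gnt7 in 15 of 18 and in C1galt1 in 15 of 18. C1galt1 shared its highest library with B3gnt7 in 14 groups and with St3gal4 in 12, and B3gnt7 shared its own with St3gal4 in 11. How often other genes share their highest library was not counted. The library highest in B3gnt7 was the highest in Gcnt3 or B4galnt2 in 0 of 18 groups. Fut2 followed neither pair closely, and its highest library was that of Gcnt3 in 9 groups and that of Fut4 in 4.

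The genes whose levels were most like each member were taken by Pearson correlation of log2(TPM + 1) after removing group means, over the 97 libraries, which also vary in epithelial and distal score, and is a description only. Nearest to Fut2 were Serinc2 (r = 0.92), Map3k21 (0.916) and the gel-forming mucin Muc2 (0.916). Nearest to B3gnt7 were Sval1 (0.971), Pla2g2f, a secreted phospholipase (0.970), and Clic6 (0.968), and nearest to Fut4 were Plbd1 (0.974), Aldh1l1 (0.969) and Raet1e (0.965). B4galnt2 lay nearest to Arl14 (0.933), Gramd3 (0.926) and Tmem238l (0.925), and Gcnt3 to Mall (0.945), Mettl7b (0.942) and Tmem238l (0.940). C1galt1 lay nearest to the Golgi protein Golm1 (0.944), Tpd52 (0.941) and the copper transporter Slc31a1 (0.933), C1galt1c1 to Dram2 (0.907), Tm9sf2 (0.907) and Tmed2 (0.906), and St3gal4 to Chp2 (0.842), Kif13b (0.827) and Rasef (0.823).

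The rest of the pathway was read from lists of glycan genes in the comparisons averaged over the 3 routes. Of all genes tested, 5.13% rose and 2.75% fell under ampicillin, 18.6% rose and 7.4% fell under vancomycin, and 4.69% rose and 3.27% fell under the mix. With 5 to 17 genes a list, the counts below are a description. Except where scores are named, these values have no covariate for tissue makeup. The vancomycin average includes Vancomycin-IP, where the smooth muscle score was 11.1 against 8.84 in PBS-IP and the epithelial score 8.07 against 9.41. A fit with the epithelial and Hox scores called 15.1% of all genes under ampicillin, 16.3% under vancomycin and 12.7% under the mix. Without the scores these shares were 7.88%, 26% and 7.96%. Of the changes below, only those of Gmds are also given from that fit. How far tissue makeup enters the others is therefore not shown here. Of 9 fucosyltransferases tested, 2 fell under ampicillin, Fut2 and Fut1 (-0.49, SE 0.12, limma adjusted p = 0.00415), and Fut11 rose (0.26, SE 0.09, adjusted p = 0.0486). The list median was -0.49, against 0.07 over all genes tested. To the digits given it is the value of Fut1, which was at 2.36 TPM or less in every library. Under vancomycin 2 fell, Fut2 and Fut1 (-0.48), and 3 rose, among them Pofut2, which fucosylates thrombospondin repeats (0.79), and Fut10 (0.85). The list median there was -0.48, again the value of Fut1 to the digits given, against 0.05 over all genes. Under the mix 2 fell, Fut1 (-0.59, adjusted p = 0.000595) and the core fucosyltransferase Fut8 (-0.77, adjusted p = 0.0347), and none rose. Fut1 makes the same fucose linkage as Fut2, but its median over the libraries was 0.402 TPM, against 83.3 TPM for Fut2.

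Of 6 genes that make or import GDP-fucose, the donor of every fucosyltransferase, 2 fell under ampicillin, the GDP-mannose dehydratase Gmds (-1.15, SE 0.35, adjusted p = 0.0284) and the fucose kinase Fcsk (-0.29, SE 0.10, adjusted p = 0.0496). Fcsk also fell under vancomycin (-0.32) and the mix (-0.30), where Gmds was at -0.87 (adjusted p = 0.067) and -0.62 (adjusted p = 0.29). With the epithelial and Hox scores in the fit, Gmds was -0.73 for ampicillin (adjusted p = 0.000606) and -0.50 for the mix (adjusted p = 0.029). These counts stand against 2.75%, 7.4% and 3.27% of all genes that fell under ampicillin, vancomycin and the mix. Among 17 genes of chain extension 1 rose and 1 fell under ampicillin, 2 rose and 1 fell under vancomycin, and 1 rose and 1 fell under the mix. B3galt5, which adds galactose in type 1 chains, fell under ampicillin (-1.43, SE 0.39, adjusted p = 0.0133) and under the mix (-1.50, SE 0.39, adjusted p = 0.0099). B3gnt2, another enzyme that adds N-acetylglucosamine, rose in both (0.71 and 0.75, SE 0.19 each). In the 6 genes of core structures none was called under ampicillin, vancomycin or the mix.

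Of 7 mucins, 2 fell under ampicillin, the membrane mucins Muc4 (-1.56, SE 0.37, adjusted p = 0.0041) and Muc20 (-0.66, SE 0.17, adjusted p = 0.00977), and none rose. Muc20 levels were low, with a median of 0.894 TPM and a highest level of 4.085 TPM over the libraries. Under vancomycin Muc4 (-1.11), Muc3 (adjusted p = 0.0354) and Muc20 (-0.54) fell, and under the mix none of the 7 was called. Of all genes 2.75% fell under ampicillin and 7.4% under vancomycin. Muc2, the main gel-forming mucin of goblet cells, was at -1.07 (SE 0.47, adjusted p = 0.15) under ampicillin and -0.96 (SE 0.50, adjusted p = 0.13) under vancomycin. Of 11 sialyltransferases 1 rose under ampicillin, St3gal5 (0.89, adjusted p = 0.0103), and none fell. Under vancomycin 2 rose, St3gal2 (1.18) and St3gal5 (0.63), while St3gal4 was at -0.68 (adjusted p = 0.10). Of all genes 5.13% rose under ampicillin and 18.6% under vancomycin. Of 11 genes of interleukin 22 signalling 2 rose and 0 fell under ampicillin, 1 rose and 1 fell under vancomycin, and 2 rose and 0 fell under the mix. The receptor subunit Il22ra1 rose under ampicillin (1.02, SE 0.29, adjusted p = 0.0181) and the mix (1.06, SE 0.29, adjusted p = 0.0148), and the acute-phase gene Saa1 rose under ampicillin (1.60, SE 0.46, adjusted p = 0.02). Reg3g, a secreted antimicrobial lectin, was at -1.14 (SE 1.00, adjusted p = 0.48) under ampicillin. No list median was compared with other lists by a test.

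Along the distal score 29.9% of all genes had a called positive slope and 29.9% a called negative one. Of the genes of sialic acid supply 5 of 5 had positive slopes that were called, among them Nans, which makes sialic acid phosphate (0.51), and Gne, which starts the pathway (0.43). The list median was 0.13, and all genes tested had a median close to 0. Of 9 fucosyltransferases 6 were positive and 1 negative, with Fut9 (0.89) beside Fut4 at the top and Fut2 as the negative one, a call lost with the distal score alone in the fit. Of 6 core genes 2 were positive and 3 negative, with Gcnt3, the core 3 enzyme B3gnt6 (-0.63) and Gcnt4 (-0.56) negative and Gcnt1 (0.31) positive. Of 7 mucins 3 were positive and 4 negative, with Muc1 (0.65) highest and Muc3a (-0.54) lowest.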

How the data were processed

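RNA from flash-frozen colon was sequenced after poly(A) selection, per the labels' protocols. The authors deposited 1 table of TPM values per gene and library, made with Salmon after Trim Galore 0.6.2 and cutadapt 3.5, per the submitters' processing notes, which also name build GRCm39. No source used here gives the read depth or the Salmon version, and TPM cannot be turned back into counts. Genes with TPM of at least 1 in at least 4 libraries were kept, 17083 of 20457. Fits used limma 3.58.1 in R 4.3.3 on log2(TPM + 1) with trended, robust variance over all 18 groups. A fold change on this scale understates changes of low genes. P-values were adjusted by Benjamini-Hochberg over all genes tested, and a call is an adjusted p under 0.05. Scores were compared by exact permutation tests (scipy 1.17.1), and figures were drawn with matplotlib 3.10.9. On simulated data for Vancomycin-PO against PBS-PO with 17083 genes, the fit called 54% of 100 genes changed 2-fold and 92% of 100 changed 4-fold, with 6 false calls. The noise was independent and normal, and only genes with a mean log2(TPM + 1) above 3 were changed. In the real comparison the SE was 0.88 for Fut4 and Gcnt3 and 1.65 for B3gnt7, so these rates do not hold for such variable members. The members and gene lists were chosen with earlier results of these data known. Named genes were the 8 members, the 3 genes most like each by correlation, and per pathway list up to 4 called and 2 uncalled genes of largest change. Replicate numbers did not pair libraries (mean correlation of same-numbered deviations 0.0222), so the reported fits have no block, and a fit with one was an alternative.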

Additional observations from a re-analysis of the deposited data

Results flagged for a closer look

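In 144 sets of 1 gene in 1 group, 29 held a single library far above the rest of its group by Dixon's test, in 15 libraries. For independent, normally spread values about 1 in 20, or 7.2 here, would be flagged. TPM is not spread in that way and the genes share libraries, so the 29 cannot be read as an excess over 7.2. Values are TPM, and those of the other libraries of each group stand in brackets.

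The same library stood high in Fut4 and B3gnt7 in 6 groups. These were Ampicillin-PO 1 with 94.1 of Fut4 (5.20 to 21.0) and 251 of B3gnt7 (0.391 to 14.7), Mix-IP 6 with 220.4 (16.9 to 25.1) and 565 (0.429 to 26.3), and Mix-IV 3 with 170.1 (4.07 to 15.1) and 338 (1.18 to 24.9). Mix-PO 6 had 60.2 (25.6 to 37.8) and 100.1 (0.863 to 37.0), Vancomycin-IV 1 had 114 (2.48 to 21.2) and 349 (2.39 to 95.4), and Vancomycin-PO 6 had 176.5 (5.92 to 29.7) and 423 (3.89 to 34.4). Metronidazole-IV 4 stood high in B3gnt7 alone, at 97.03 (1.55 to 3.24).

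The same library stood high in B4galnt2 and Gcnt3 in 5 groups. These were Ampicillin-IP 6 with 260.0 of B4galnt2 (17.8 to 63.3) and 541.5 of Gcnt3 (49.6 to 198), Metronidazole-IP 2 with 241.7 (8.28 to 16.8) and 600.0 (21.9 to 68.5), and Metronidazole-PO 3 with 272 (6.09 to 30.7) and 460.2 (9.74 to 99.7). Neomycin-IP 1 had 354 (20.4 to 40.1) and 651 (35.5 to 87.4), and Neomycin-PO 1 had 110.4 (11.7 to 36.9) and 520.2 (26.5 to 112). Gcnt3 alone stood high in Mix-IV 5, at 501.6 (19.0 to 172), and in PBS-IP 3, at 394 (84.2 to 109).

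C1galt1 stood high in Mix-IP 6 at 182 (68.0 to 110) and Mix-PO 6 at 147 (79.0 to 98.3). St3gal4 stood high in Mix-PO 6 at 524 (121 to 252) and PBS-PO 4 at 521.5 (190 to 249).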

How the results depend on the processing

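Counts of members called are followed in brackets by the share of all gene tests called in the same setting. In the 15 same-route comparisons 1 call (1.45%) became 2 with epithelial and distal scores as covariates (1.26%), 0 with the epithelial score (0.874%), 0 with muscle and distal scores (0.752%), 0 without a filter (1.11%), 0 without the 12 appended libraries (0.136%), 3 in fits of only the 2 compared groups (2.08%), 2 with pseudocount 10 (1.67%), 3 after quantile normalization (1.53%) and 14 of 120 with array weights (11.5%). Over the 3 routes 2 calls (8.92%) became 0 without the appended libraries (2.69%), 0 with muscle and distal scores (7.62%) and 13 of 40 with array weights (24%). The test of all 15 effects, at 0 (14.4%), gave 1 with epithelial and distal scores (21.6%), 1 with the epithelial score (16.2%) and 8 with array weights (89.1%). The mix against single antibiotics, at 0 (1.66%), gave 2 without the appended libraries (1.95%), 1 with pseudocount 10 (0.954%) and 6 of 24 with array weights (21.1%). Distal slopes called, 7 of 8 (59.8%), numbered 6 with the distal score alone (47.9%), 2 in libraries under a score of 3 (8.67%) and 0 in those of at least 4 (0.861%), where the St3gal4 slope was -0.0426. The fit with epithelial and distal scores, the removal of the appended libraries and the score subsets were chosen after seeing the data. The cause of these changes was not tested.

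Leaving out 1 library gave 0 to 1 calls by route, 0 to 4 over the 3 routes, 0 to 1 in the test of all 15 effects, 0 to 2 for the mix against single antibiotics, and 0 to 0 for route differences, for PBS by injection and for scores. The replicate numbers share no source in the labels, and 32 of 74 same-numbered pairs correlated above 0.1. With them as a block, the mix against single antibiotics gave 2 calls (1.94%), B4galnt2 in Mix-PO at 2.29 (limma adjusted p = 0.043) and Gcnt3 in Mix-IP at 2.17 (adjusted p = 0.0486). The depth of each library is unknown, so its limit on low genes cannot be given.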
